A study of Homo sapiens with 12 samples.

Results

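The centromere and kinetochore genes described here are 37 genes, taken by name from the 57133 gene names of the count tables: 4 of the CENP-A nucleosome and its deposition, 13 of the inner kinetochore network, 9 of the KNL1, MIS12 and NDC80 complexes with ZWINT, 3 of the SKA complex, 3 of the outer corona and 5 of the inner centromere. All 37 were found. They were measured by messenger RNA sequencing in MCF10-A, an established, non-tumorigenic human breast epithelial cell line, in 12 libraries. p21 cells carried a doxycycline-inducible mVenus-p21 transgene and received DMSO. p16 cells with Torin2 carried inducible mVenus-p16 and received Torin2 at 100 nM, a compound that blocks the kinase mTOR. p16 cells carried the same mVenus-p16 transgene and received DMSO. mVenus cells, the controls, carried inducible mVenus, a yellow fluorescent protein, with no inhibitor fused to it, and received DMSO. Each group had 3 libraries, described in the series as biological replicates. All groups, mVenus included, were grown with 50 ng/ml doxycycline, started 20 hours after 150000 cells had been seeded per well. DMSO or Torin2 was added 24 hours later, medium was changed every 48 hours, and cells were collected at day 5. All came from passages 12 to 15, and whether each line was 1 clone is not given in the sources used here.

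The kinetochore is the protein structure that ties each chromosome to the spindle in mitosis. It is built on nucleosomes that hold CENP-A, a histone H3 variant, on which an inner network of CENP proteins sits throughout the cell cycle, while the outer complexes that grip microtubules assemble for mitosis. Dividing cells make many of these proteins mainly in the G2 and M phases, so their messenger RNAs are known as part of the cell cycle programme. Cyclin-dependent kinases drive cells into S phase, and both p16 and p21 block these kinases. In other work, many late cell cycle genes have been found to carry a short promoter element, the CHR, at which the DREAM complex represses them in resting cells and B-MYB and FOXM1 complexes act in dividing cells. Such promoters often also hold CCAAT boxes, bound by NF-Y.

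The promoter sequences of 10 of the genes are shown so that the element can be set beside the expression values. In RefSeq's annotation of GRCh38.p14, 31 of the 37 genes matched a promoter, and MIS18A, CENPH, CENPL, CENPM, KNL1 and BIRC5 were not matched. The motifs searched on both strands were TTTGAA and TTCGAA for the CHR, CCAAT for the CCAAT box, and TTTCGCGC, TTTGGCGC, TTTCCCGC and TTTGGCGG for E2F sites. TTCGAA reads the same on both strands, and a CHR may overlap a CCAAT box, as in CDCA8. Each stretch runs 5′ to 3′ on the gene's strand from 120 bases before to 50 bases after the annotated start, in lower case with motif matches of either strand in capitals. The first 6 genes have a CHR from 50 bases before to 50 bases after the start. CENPA lies at chr2:26785936-26786105 on the plus strand and NDC80 at chr18:2571437-2571606 on the plus strand. SKA3 lies at chr13:21176503-21176672 on the minus strand and CENPF at chr1:214603075-214603244 on the plus strand. INCENP lies at chr11:62123891-62124060 on the plus strand and CDCA8 at chr1:37692396-37692565 on the plus strand.
CENPA: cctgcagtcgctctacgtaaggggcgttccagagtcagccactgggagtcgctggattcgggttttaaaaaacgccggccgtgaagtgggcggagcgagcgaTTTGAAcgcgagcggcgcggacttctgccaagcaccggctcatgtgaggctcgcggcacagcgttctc
NDC80: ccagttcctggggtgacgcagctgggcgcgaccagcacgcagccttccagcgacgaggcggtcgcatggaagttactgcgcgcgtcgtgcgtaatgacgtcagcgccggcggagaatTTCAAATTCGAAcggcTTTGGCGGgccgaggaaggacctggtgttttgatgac
SKA3: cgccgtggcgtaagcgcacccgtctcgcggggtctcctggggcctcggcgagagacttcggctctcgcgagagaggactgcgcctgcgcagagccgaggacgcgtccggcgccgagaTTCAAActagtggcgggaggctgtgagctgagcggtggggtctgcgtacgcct
CENPF: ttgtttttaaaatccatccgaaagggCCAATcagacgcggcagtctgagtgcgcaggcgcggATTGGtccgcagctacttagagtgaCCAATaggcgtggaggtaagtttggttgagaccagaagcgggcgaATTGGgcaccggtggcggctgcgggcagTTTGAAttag
INCENP: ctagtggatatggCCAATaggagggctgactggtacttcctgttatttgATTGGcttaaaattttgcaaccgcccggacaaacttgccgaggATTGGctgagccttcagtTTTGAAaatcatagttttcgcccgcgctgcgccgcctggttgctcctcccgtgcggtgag
CDCA8: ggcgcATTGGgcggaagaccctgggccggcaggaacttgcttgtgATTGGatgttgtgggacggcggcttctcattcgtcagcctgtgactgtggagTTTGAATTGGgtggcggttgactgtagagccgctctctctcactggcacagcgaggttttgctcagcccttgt

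The remaining 4 promoters hold no CHR match and belong to genes whose expression differed least from mVenus within their complexes, or that were higher in p21 cells than in p16 cells. They do not stand for all genes with small falls. CENPC and ZW10, which fell least of the inner network and the corona, hold a CHR match, at -90 and -224 bases from the start. CENPT lies at chr16:67847644-67847813 on the minus strand and NSL1 at chr1:212791728-212791897 on the minus strand. MIS12 lies at chr17:5486254-5486423 on the plus strand and SKA2 at chr17:59155137-59155306 on the minus strand.
CENPT: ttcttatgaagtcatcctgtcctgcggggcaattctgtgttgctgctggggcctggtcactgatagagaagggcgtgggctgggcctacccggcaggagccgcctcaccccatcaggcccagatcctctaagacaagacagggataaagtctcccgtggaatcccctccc
NSL1: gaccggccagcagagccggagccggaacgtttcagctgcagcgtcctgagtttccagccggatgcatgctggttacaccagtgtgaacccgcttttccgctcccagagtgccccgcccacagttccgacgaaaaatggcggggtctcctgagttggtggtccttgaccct
MIS12: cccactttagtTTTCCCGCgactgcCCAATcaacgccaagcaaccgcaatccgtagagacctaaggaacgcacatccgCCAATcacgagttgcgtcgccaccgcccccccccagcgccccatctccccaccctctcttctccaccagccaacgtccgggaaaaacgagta
SKA2: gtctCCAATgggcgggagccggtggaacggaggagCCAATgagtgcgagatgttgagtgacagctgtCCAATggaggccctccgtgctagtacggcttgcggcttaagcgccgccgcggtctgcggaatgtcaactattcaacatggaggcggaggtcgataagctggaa

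A CHR match from 50 bases before to 50 bases after the start was present in 15 of the 31 matched promoters (48.4%), against 3.14% of the 10044 matched promoters of all tested genes and 5.01% of all 35116 promoters in the table. Over the whole 300 bases, a CHR match was present in 18 of 31 (58.1%), against 11.3% of tested genes. CCAAT boxes were present in 20 of 31 (64.5%), against 36.5% of tested genes. Both together were present in 13 of 31 (41.9%), against 4.76%. E2F words were present in 5 of 31 (16.1%), against 5.52%, and in the 100 bases before the start in 0 of 31, against 2.09%. CENPI, CENPP, CENPT, CENPE, DSN1 and NSL1 held no match to any of these motifs in the window. A match describes letters only, and no binding was measured here.

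Libraries held 13168749 to 18321114 counts assigned to genes, and the lowest correlation of log2 CPM between replicates of a group was 0.992. CPM is a count scaled to the size of its library, corrected for library composition, and is given for single libraries or as the mean ± SD of a group's 3 libraries. CDKN2A, the gene of p16, had 0 counts in all 12 libraries, so the counts of that gene could not check the p16 labels, and p16 cells means throughout the libraries so labelled. CDKN1A, the gene of p21, stood at 889 ± 16.5 CPM in p21 cells, 259 ± 17 CPM in p16 cells with Torin2, 570.3 ± 30.1 CPM in p16 cells and 712 ± 13 CPM in mVenus cells. MKI67, a gene of dividing cells, stood at 3.35 ± 0.425 CPM in p21 cells, 51.6 ± 0.647 CPM in p16 cells with Torin2, 10.1 ± 0.427 CPM in p16 cells and 331 ± 15.6 CPM in mVenus cells. All 8 epithelial markers had counts in every library, with sums of 9583 to 9936 CPM in p21 cells, 8267 to 8537 CPM in p16 cells with Torin2 and 16378 to 17110 CPM in p16 cells, against 7487 to 7898 CPM in mVenus cells. Of 5 leukocyte markers, 1 or 2 had counts in a library. CD14 carried nearly all of their sum, which was 34.6 to 38.6 CPM in p16 cells and 12.8 to 24.4 CPM elsewhere, and CD3E and TYROBP were at 0. The 4 endothelial markers summed to 1.47 to 4.68 CPM. Of 5 fibroblast markers, COL1A2 and COL3A1 had at most 1 count in a group, and the sum was 111 to 117 CPM in p21 cells, mostly DCN, against 5.56 to 20.4 CPM elsewhere. Their part in the results below was not tested.

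p21 cells and p16 cells had far less messenger RNA for these genes than mVenus cells. Of the 37 genes, 35 had enough counts to be tested, and all 35 fell in p21 cells and in p16 cells compared with mVenus cells. CENPF, HJURP, BIRC5, NUF2, SKA3 and KNL1 were down to a few percent of their mVenus level, whereas CENPC, MIS12, NSL1 and ZW10 fell by less than 2-fold in both. Summed over the 37 genes, the level was 270.4, 267.5 and 265.6 CPM in p21 cells, 442.9, 425.6 and 431.6 CPM in p16 cells with Torin2 and 291.2, 297.9 and 307.8 CPM in p16 cells, against 1089.9, 1056.4 and 1100.9 CPM in mVenus cells. The sums of the 4 groups did not overlap.

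These comparisons ask which genes differ once mVenus-p21 or mVenus-p16 is induced, and they share the 3 mVenus libraries. The series describes the cells as arrested, which was not measured here. In p21 cells against mVenus cells, 35 of 35 fell and 0 rose at an adjusted p under 0.05 (edgeR quasi-likelihood test with Benjamini-Hochberg adjustment over 14504 genes), where 28.3% of all tested genes fell and 28.2% rose. At least 2-fold falls numbered 28, where the share over all tested genes was 6.49%. The median log2 fold change of the 35 was -2.68, against -0.0037 over all tested genes. In p16 cells against mVenus cells, 35 of 35 fell and 0 rose, where 32.8% of all tested genes fell and 30.9% rose. At least 2-fold falls numbered 26, where the share over all tested genes was 9.35%, and the median log2 fold change was -2.17, against -0.0036 over all. No gene of the 35 had a positive log2 fold change in either comparison, so that 0 rose at an unadjusted p under 0.05 or with DESeq2 either. In bulk samples, fewer cells that express a gene and less RNA per cell cannot be told apart.

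The filter on low counts needed 0.64 CPM in 3 libraries, the size of a group. Of the 37 genes, 24 were above it in all 4 groups. CENPM was above it only in mVenus cells, CENPA and OIP5 only in mVenus cells and in p16 cells with Torin2, and HJURP, CENPU, CENPW, NUF2, SPC24, SKA3, BIRC5 and SGO1 in every group except p21. Since these 11 genes entered the test through the groups in which they were high, their differences between groups give no separate support. All 11 are among the falls counted above for p21 cells, and CENPA, CENPM and OIP5 are among those of p16 cells. SPC25 and SKA1 were not tested.

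**Figure D1:**
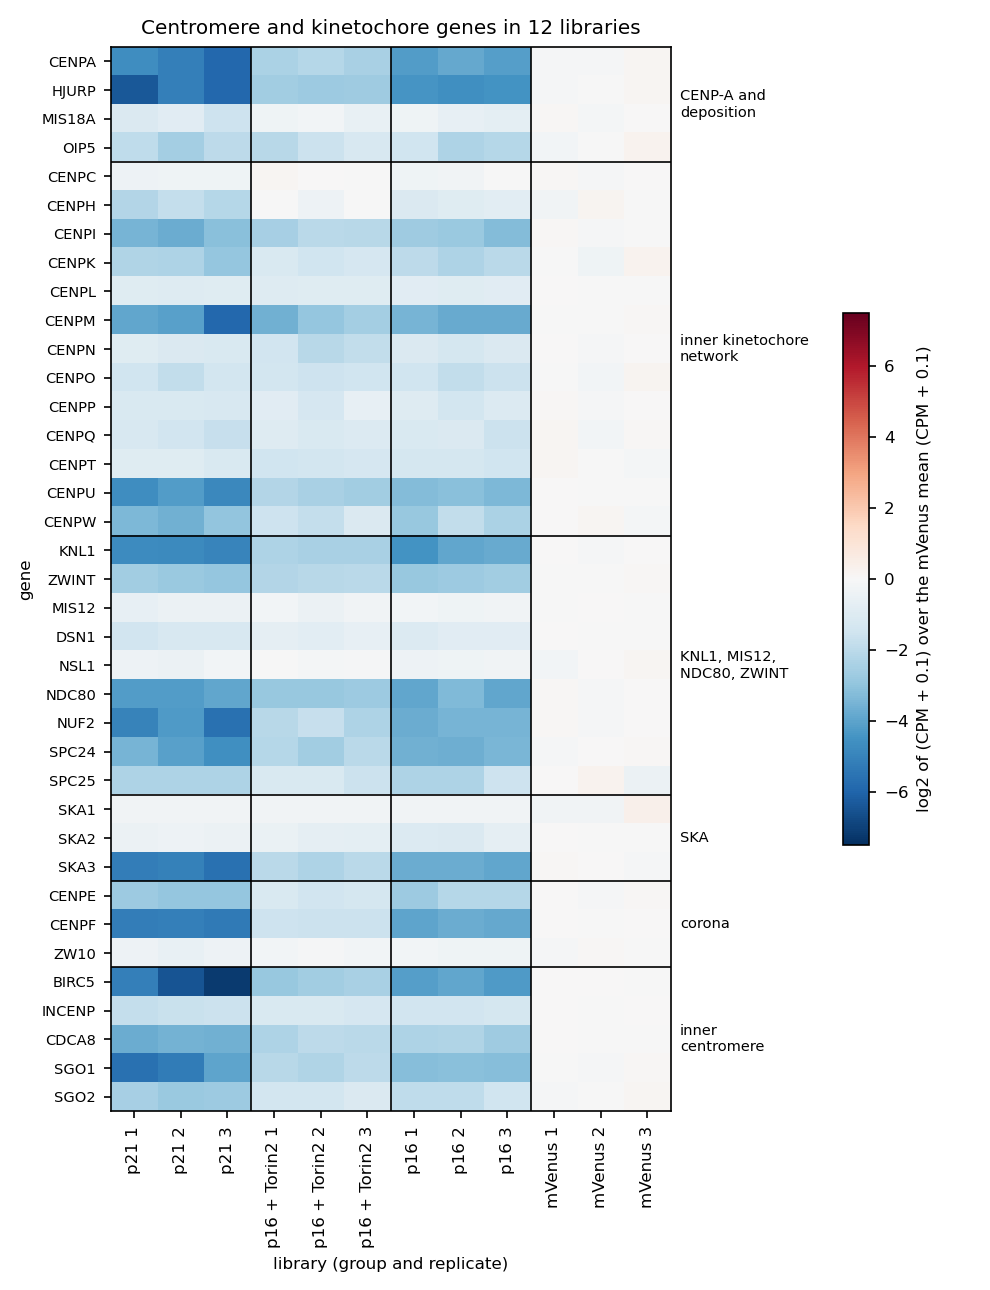
Each row is a gene, grouped by role, and each column a library, in the order p21, p16 with Torin2, p16 and mVenus. Colour shows log2 of CPM plus 0.1 over the mVenus mean of CPM plus 0.1. The 3 mVenus columns are near white, the p21 columns are the darkest blue for most genes, and the p16 columns with Torin2 lie between p16 and mVenus for most genes. For SPC25 and SKA1, with counts at or near 0, the colour is set largely by the added 0.1.

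Of the 4 genes of the CENP-A nucleosome and its deposition, CENPA and HJURP were among those that fell most. MIS18A and OIP5 fell less. CENPA, the histone variant that marks the centromere, had 0.294, 0.186 and 0.0637 CPM in p21 cells, 1.82, 2.13 and 1.7 CPM in p16 cells with Torin2, 0.437, 0.593 and 0.474 CPM in p16 cells, against 9.22, 9.13 and 10.9 CPM in mVenus cells. HJURP, the chaperone that brings CENP-A to the centromere, had 0.294, 0.805 and 0.446 CPM in p21 cells, 5.08, 4.85 and 4.92 CPM in p16 cells with Torin2, 1.37, 1.25 and 1.35 CPM in p16 cells, against 30.4, 31 and 34.9 CPM in mVenus cells. For both genes every p21 library was below every p16 library, those were below every Torin2 library, and mVenus stood far above all. The CENPA values in p21 cells rest on 4, 3 and 1 counts. CENPA fell with a log2 fold change of -5.73 ± 0.26 (SE, adjusted p = 1.17e-13) in p21 cells and -4.27 ± 0.21 (adjusted p = 4.42e-13) in p16 cells against mVenus cells. Here and below, SE is derived from the F statistic of the test and may understate the error where counts are few. HJURP fell with a log2 fold change of -5.91 ± 0.15 in p21 cells, on 4, 13 and 7 counts, and -4.59 ± 0.13 in p16 cells.

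MIS18A and OIP5 form the MIS18 complex, which prepares centromeres for new CENP-A. MIS18A had 3.67, 4.27 and 2.68 CPM in p21 cells, 6.32, 6.92 and 5.31 CPM in p16 cells with Torin2, 6.3, 5.14 and 4.81 CPM in p16 cells, against 8.23, 7.23 and 8.22 CPM in mVenus cells. Its mVenus libraries were the highest without overlap, its p21 libraries the lowest, and the p16 libraries with and without Torin2 overlapped. Its log2 fold change was -1.16 ± 0.16 in p21 cells and -0.55 ± 0.15 in p16 cells against mVenus cells, the smallest fall of the 4 genes in both. OIP5 had 0.734, 0.433 and 0.701 CPM in p21 cells, 0.651, 0.905 and 1.25 CPM in p16 cells with Torin2, 0.998, 0.527 and 0.610 CPM in p16 cells, against 2.57, 2.92 and 3.59 CPM in mVenus cells. The 3 groups with an inhibitor overlapped among themselves and stayed below mVenus. OIP5 fell with a log2 fold change of -2.28 ± 0.29 in p21 cells and -2.07 ± 0.28 in p16 cells. Its counts are uncertain, because 38% of its exonic bases are shared with OIP5-AS1 and strand was not used in counting.

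The 13 genes of the inner network, which bridges CENP-A chromatin and the outer kinetochore, differed widely among themselves. All 13 fell in both comparisons, with a median log2 fold change of -1.60 in p21 cells and -1.36 in p16 cells. CENPM, which sits in 1 complex with CENPH, CENPI and CENPK, was among those that fell most. It had 0.294, 0.248 and 0 CPM in p21 cells, 0.391, 0.711 and 0.918 CPM in p16 cells with Torin2, 0.437, 0.329 and 0.339 CPM in p16 cells, against 5.66, 5.77 and 6.15 CPM in mVenus cells. Its p21 libraries lay below its p16 libraries, some Torin2 and p16 values overlapped, and all were far below mVenus. The log2 fold change of CENPM was -5.00 ± 0.36 in p21 cells, where the libraries held 4, 4 and 0 counts, and -3.96 ± 0.31 in p16 cells. Without p21 replicate 3 the value in p21 cells was -4.41.

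CENPC, which binds the CENP-A nucleosome and recruits the MIS12 complex, fell least of the 13. CENPC had 17.3, 18.3 and 18.3 CPM in p21 cells, 25.5, 23.5 and 22.1 CPM in p16 cells with Torin2, 18.3, 19.1 and 22.3 CPM in p16 cells, against 23.5, 20.9 and 23.3 CPM in mVenus cells. The p21 libraries lay narrowly below all others, and the p16, Torin2 and mVenus ranges overlapped. CENPC fell with a log2 fold change of -0.33 ± 0.079 (adjusted p = 0.00132) in p21 cells and -0.19 ± 0.078 (adjusted p = 0.0407) in p16 cells against mVenus cells. The call in p16 cells was lost under 9 of 12 alternatives. Leaving out mVenus replicate 1 gave an adjusted p of 0.143, mVenus replicate 3 gave 0.117, p16 replicate 1 gave 0.186 and p16 replicate 2 gave 0.134.

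Partners within the inner network did not fall by equal amounts. CENPH had 1.91, 2.66 and 2.04 CPM in p21 cells, 9.25, 7.17 and 9.18 CPM in p16 cells with Torin2, 4.24, 4.87 and 5.22 CPM in p16 cells, against 7.86, 10.7 and 9.2 CPM in mVenus cells. The p21 libraries were the lowest and the p16 libraries next, whereas the Torin2 and mVenus ranges overlapped. CENPH fell with a log2 fold change of -2.05 ± 0.17 in p21 cells and -0.94 ± 0.15 in p16 cells, while its partners CENPI (-3.50 ± 0.17 and -2.94 ± 0.16) and CENPK (-2.57 ± 0.21 and -2.17 ± 0.20) fell further on the same scale. CENPI stood at 1.23 ± 0.274 CPM in p21 cells and 1.82 ± 0.407 CPM in p16 cells, against 14 ± 0.923 CPM in mVenus cells.

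CENPU, which brings the kinase PLK1 to the kinetochore, had 0.660, 0.928 and 0.573 CPM in p21 cells, 4.1, 3.36 and 3.08 CPM in p16 cells with Torin2, 1.93, 2.11 and 1.76 CPM in p16 cells, against 19.4, 18.7 and 18.7 CPM in mVenus cells. All 4 groups were apart, in the order p21, p16, p16 with Torin2 and mVenus from low to high. CENPU fell with a log2 fold change of -4.69 ± 0.16 in p21 cells and -3.28 ± 0.13 in p16 cells. CENPO, CENPP and CENPQ, which sit with CENPU in 1 complex, had log2 fold changes of -1.60, -1.21 and -1.5 in p21 cells and -1.68, -1.18 and -1.31 in p16 cells. All of these were falls, smaller than that of CENPU. CENPO and CENPP are uncertain, with 31.4% and 42.7% of their exonic bases shared with other genes, ADCY3 and IPPK among them.

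CENPW and CENPT bind each other through histone folds, and CENPT recruits the NDC80 complex. CENPW had 0.440, 0.371 and 0.637 CPM in p21 cells, 1.82, 1.55 and 2.56 CPM in p16 cells with Torin2, 0.686, 1.45 and 1.02 CPM in p16 cells, against 5.71, 6.06 and 4.96 CPM in mVenus cells. CENPT had 44, 44.2 and 37.9 CPM in p21 cells, 29.1, 31.9 and 33.7 CPM in p16 cells with Torin2, 32.8, 33.5 and 29.6 CPM in p16 cells, against 89.5, 82.2 and 75.5 CPM in mVenus cells. For CENPW the p21 libraries were the lowest, whereas for CENPT they stood above all 6 p16 libraries, and the p16 libraries with and without Torin2 overlapped. CENPW fell with a log2 fold change of -3.50 ± 0.27 in p21 cells and -2.40 ± 0.24 in p16 cells against mVenus cells. CENPT fell with a log2 fold change of -0.97 ± 0.07 in p21 cells and -1.36 ± 0.073 in p16 cells.

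CENPN, which reads the CENP-A nucleosome, and its partner CENPL fell about 2-fold. CENPN had 12, 10.6 and 10.4 CPM in p21 cells, 8.34, 5.37 and 6.23 CPM in p16 cells with Torin2, 10.9, 9.22 and 10.8 CPM in p16 cells, against 23.2, 21.7 and 23.8 CPM in mVenus cells. Its Torin2 libraries lay below those of every other group, its p21 and p16 ranges overlapped, and mVenus was the highest. CENPN fell with a log2 fold change of -1.06 ± 0.10 in p21 cells and -1.15 ± 0.10 in p16 cells. CENPL stood at 10.2 ± 0.296 CPM in p21 cells, 10.2 ± 0.156 CPM in p16 cells with Torin2 and 10.7 ± 0.188 CPM in p16 cells, against 19.5 ± 0.293 CPM in mVenus cells, so that the 3 groups with an inhibitor lay close together.

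Of the outer kinetochore complexes, KNL1 and the NDC80 complex fell many-fold and the subunits of the MIS12 complex less. KNL1, the scaffold on which the checkpoint proteins of the BUB family gather, had 1.91, 1.86 and 1.59 CPM in p21 cells, 10.4, 9.83 and 9.77 CPM in p16 cells with Torin2, 2.25, 3.43 and 3.73 CPM in p16 cells, against 54.2, 50.5 and 54.3 CPM in mVenus cells. NUF2, which pairs with NDC80 at the microtubule-binding end, had 0.440, 0.805 and 0.255 CPM in p21 cells, 3.97, 5.04 and 3.34 CPM in p16 cells with Torin2, 1.18, 1.45 and 1.42 CPM in p16 cells, against 18.1, 15.9 and 17.4 CPM in mVenus cells. The 4 groups of both genes were apart, with p21 lowest and p16 next. KNL1 fell with a log2 fold change of -4.89 ± 0.11 (adjusted p = 1.80e-18) in p21 cells and -4.09 ± 0.10 (adjusted p = 3.27e-18) in p16 cells. NUF2 fell with a log2 fold change of -5.07 ± 0.21 in p21 cells, on 6, 13 and 4 counts, and -3.66 ± 0.17 in p16 cells. NDC80 (-4.17 ± 0.13 and -3.74 ± 0.12) and SPC24 (-4.13 ± 0.19 and -3.66 ± 0.18), an anchor at the chromosome end of the complex, fell on the same scale in p21 and in p16 cells. ZWINT, a partner of KNL1, had log2 fold changes of -2.79 ± 0.081 in p21 cells and -2.74 ± 0.08 in p16 cells.

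MIS12, DSN1 and NSL1 are subunits of the complex that links CENPC and CENPT to KNL1 and NDC80. MIS12 had 15.1, 16.7 and 17.2 CPM in p21 cells, 20.1, 17.1 and 19.5 CPM in p16 cells with Torin2, 20.0, 18.8 and 19.5 CPM in p16 cells, against 23.1, 23.5 and 22.7 CPM in mVenus cells. DSN1 had 6.97, 8.29 and 8.22 CPM in p21 cells, 12, 11.2 and 12.3 CPM in p16 cells with Torin2, 9.54, 10.7 and 10.5 CPM in p16 cells, against 19.9, 18.6 and 19 CPM in mVenus cells. NSL1 had 22.9, 22.8 and 26.2 CPM in p21 cells, 29.9, 27.2 and 28.1 CPM in p16 cells with Torin2, 23.8, 24.3 and 25.3 CPM in p16 cells, against 26.2, 31.5 and 33.4 CPM in mVenus cells. For MIS12 and DSN1 every p21 library lay below every p16 library and mVenus was the highest, though 1 MIS12 value with Torin2 fell within the p21 range. For NSL1 the highest p21 value reached the lowest mVenus value. MIS12 fell with a log2 fold change of -0.49 ± 0.071 in p21 cells and -0.25 ± 0.069 in p16 cells. DSN1 fell with a log2 fold change of -1.29 ± 0.084 in p21 cells and -0.91 ± 0.08 in p16 cells. NSL1 fell with a log2 fold change of -0.34 ± 0.081 (adjusted p = 0.00146) in p21 cells and -0.31 ± 0.081 (adjusted p = 0.00248) in p16 cells.

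SPC25, the partner of SPC24, was too low to test. It had 0 counts in each p21 library, 2, 2 and 1 counts in p16 cells with Torin2 and 0, 0 and 1 counts in p16 cells, against 8, 7 and 5 counts in mVenus cells. Set against the floor of 3 counts over a group, SPC25 was at least 5.93-fold lower in p21 cells than in mVenus cells. In p16 cells with Torin2 it was 3.6-fold lower than in mVenus cells (exact 95% interval 1.31 to 12.3), and in p16 cells it was 18-fold lower (2.88 to 745), intervals that cover counting error only. SPC25 was low even in mVenus cells, and whether the counting or the annotation lowers it was not tested.

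The SKA complex follows the ends of shrinking microtubules, and SKA2 and SKA3, its tested genes, behaved differently from each other. SKA3 had 0.440, 0.495 and 0.319 CPM in p21 cells, 4.82, 3.94 and 4.85 CPM in p16 cells with Torin2, 1.43, 1.38 and 1.22 CPM in p16 cells, against 20.7, 19.9 and 18.8 CPM in mVenus cells. SKA2 had 33.4, 34.4 and 33.3 CPM in p21 cells, 31.7, 27.5 and 27 CPM in p16 cells with Torin2, 21.5, 21.1 and 28.4 CPM in p16 cells, against 46, 43.8 and 44.4 CPM in mVenus cells. SKA3 had its lowest values in p21 cells, with all 4 groups apart, whereas SKA2 had p21 libraries above all p16 libraries and only mVenus above p21. SKA3 fell with a log2 fold change of -5.54 ± 0.16 (adjusted p = 1.15e-16) in p21 cells, on 6, 8 and 5 counts, and -3.87 ± 0.13 (adjusted p = 6.95e-16) in p16 cells. SKA2 fell with a log2 fold change of -0.41 ± 0.079 (adjusted p = 1.60e-04) in p21 cells and -0.92 ± 0.083 (adjusted p = 5.14e-09) in p16 cells. SKA1 had 1 count in all 12 libraries, in mVenus replicate 3, and no fold is given.

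CENPF, a large coiled-coil protein of the corona that helps recruit dynein, had the highest CPM of the 37 genes in mVenus cells. CENPF had 5.8, 6.07 and 5.35 CPM in p21 cells, 71.2, 70.0 and 68.2 CPM in p16 cells with Torin2, 13.3, 15.9 and 14.6 CPM in p16 cells, against 212, 207 and 214 CPM in mVenus cells. CENPE, the kinesin motor that carries chromosomes to the spindle equator, had 11.4, 10.2 and 10.2 CPM in p21 cells, 34.5, 29 and 31.6 CPM in p16 cells with Torin2, 11.8, 17.5 and 17.6 CPM in p16 cells, against 78.7, 71.8 and 82.5 CPM in mVenus cells. Both genes had all 4 groups apart, with p21 lowest, though the lowest p16 library of CENPE, replicate 1, came close to p21. CENPF fell with a log2 fold change of -5.20 ± 0.064 (adjusted p = 2.08e-22) in p21 cells and -3.85 ± 0.055 (adjusted p = 1.58e-21) in p16 cells. CENPE fell with a log2 fold change of -2.88 ± 0.10 in p21 cells and -2.32 ± 0.10 in p16 cells.

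ZW10, a subunit of the complex that holds dynein and checkpoint proteins at kinetochores and that also acts in vesicle transport, changed least of the corona genes. ZW10 had 30.5, 26.6 and 30.9 CPM in p21 cells, 35, 37.9 and 34.8 CPM in p16 cells with Torin2, 34.5, 31.9 and 32.2 CPM in p16 cells, against 37.9, 41.8 and 39.8 CPM in mVenus cells. The order was p21, p16, p16 with Torin2 and mVenus without overlap, but the whole range was narrow. ZW10 fell with a log2 fold change of -0.44 ± 0.064 in p21 cells and -0.27 ± 0.063 in p16 cells.

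At the inner centromere, BIRC5, INCENP and CDCA8 encode survivin, the inner centromere protein and borealin, which place the kinase AURKB in the chromosomal passenger complex. BIRC5 had 1.1, 0.371 and 0.191 CPM in p21 cells, 5.73, 6.59 and 7.67 CPM in p16 cells with Torin2, 2.31, 2.63 and 2.1 CPM in p16 cells, against 42.9, 41.4 and 39.9 CPM in mVenus cells. CDCA8 had 1.98, 2.29 and 2.23 CPM in p21 cells, 5.6, 7.05 and 6.69 CPM in p16 cells with Torin2, 5.43, 5.8 and 4.33 CPM in p16 cells, against 28.5, 27.6 and 27.3 CPM in mVenus cells. INCENP had 19.9, 21.5 and 22 CPM in p21 cells, 30.8, 31.2 and 27.9 CPM in p16 cells with Torin2, 25.1, 25.1 and 26.7 CPM in p16 cells, against 68.4, 66.8 and 68.2 CPM in mVenus cells. Each of them was lowest in p21 cells and highest in mVenus cells, without overlap, and for CDCA8 the p16 ranges with and without Torin2 overlapped. BIRC5 fell with a log2 fold change of -6.27 ± 0.18 (adjusted p = 7.54e-17) in p21 cells, where it rests on 15, 6 and 3 counts, and -4.13 ± 0.14 (adjusted p = 4.52e-16) in p16 cells. Without p21 replicate 1 its value in p21 cells was -7.15. CDCA8 fell with a log2 fold change of -3.67 ± 0.11 in p21 cells and -2.42 ± 0.10 in p16 cells. INCENP, the scaffold of the complex, fell with a log2 fold change of -1.68 ± 0.056 in p21 cells and -1.40 ± 0.054 in p16 cells.

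SGO1 and SGO2 are the shugoshins, which shield centromeric cohesin until anaphase. SGO1 had 0.0734, 0.124 and 0.446 CPM in p21 cells, 1.89, 1.68 and 2.03 CPM in p16 cells with Torin2, 0.811, 0.856 and 0.813 CPM in p16 cells, against 8.28, 7.96 and 8.77 CPM in mVenus cells. SGO2 had 4.26, 3.47 and 3.63 CPM in p21 cells, 9.31, 9.37 and 11.1 CPM in p16 cells with Torin2, 6.24, 6.39 and 8.53 CPM in p16 cells, against 22.5, 23.4 and 26.3 CPM in mVenus cells. Both were in the order p21, p16, p16 with Torin2 and mVenus, with all 4 groups apart. SGO1 fell with a log2 fold change of -5.20 ± 0.27 in p21 cells, where it rests on 1, 2 and 7 counts, and -3.32 ± 0.21 in p16 cells. Without p21 replicate 3 its value in p21 cells was -6.26. SGO2 fell with a log2 fold change of -2.68 ± 0.12 in p21 cells and -1.78 ± 0.11 in p16 cells.

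**Figure D2:**
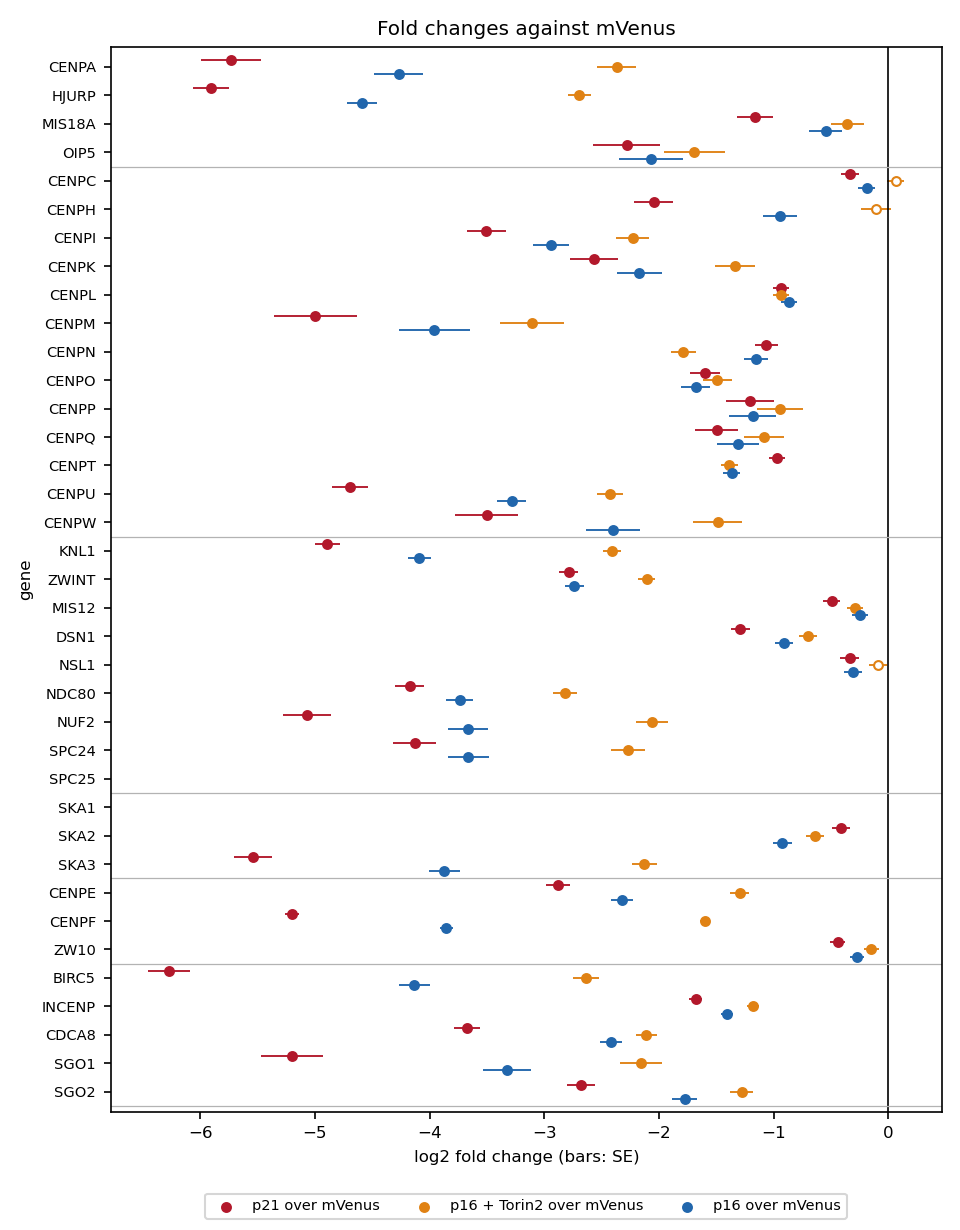
Points are log2 fold changes over mVenus for each tested gene, with bars of 1 SE, for p21 cells, p16 cells with Torin2 and p16 cells, and open points did not pass an adjusted p of 0.05. All p21 and p16 points lie below 0, from -6.27 for BIRC5 in p21 cells to -0.19 for CENPC in p16 cells, and SPC25 and SKA1 have no point.

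Between the inhibitors, most of the genes that differed were lower in p21 cells than in p16 cells. CENPA, HJURP, MIS18A, CENPH, CENPU, CENPW, KNL1, NUF2, SKA3, the corona genes and all 5 inner centromere genes were among them. CENPT and SKA2 were higher in p21 cells. This comparison sets p21 against p16 directly, using the p21 and p16 libraries of the comparisons above. Of 35 tested genes 19 were lower and 2 higher in p21 cells at an adjusted p under 0.05 (edgeR), where 27.2% of all tested genes were lower and 27.2% higher, and 14 did not pass. At least 2-fold lower were 11, where the share over all tested genes was 5.12%. The median log2 fold change was -0.47, against -0.013 over all tested genes. Of the 19 lower genes, 8 were under the low-count filter's level in p21 cells and were tested only through groups in which they were higher, so they give these counts no separate support: CENPA, HJURP, CENPU, CENPW, NUF2, SKA3, BIRC5 and SGO1. These 8 are also among the 11 that were at least 2-fold lower.

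By role, 3 of 4 CENP-A genes, 3 of 13 inner network genes, 4 of 8 outer complex genes, 1 of 2 tested SKA genes, 3 of 3 corona genes and 5 of 5 inner centromere genes were lower in p21 cells than in p16 cells. Over all tested genes 27.2% were lower, a share that the 3 of 13 inner network genes do not exceed. The 11 genes at least 2-fold lower included BIRC5, with a log2 fold change of -2.14 ± 0.33 (adjusted p = 1.65e-05). They also included SGO1 (-1.87 ± 0.42), SKA3 (-1.67 ± 0.28), CENPA (-1.47 ± 0.46), CENPU (-1.41 ± 0.24), NUF2 (-1.40 ± 0.34), CENPF (-1.35 ± 0.091), HJURP (-1.32 ± 0.30), CDCA8 (-1.25 ± 0.15), CENPH (-1.10 ± 0.19) and CENPW (-1.10 ± 0.36). BIRC5, SGO1 and SKA3 rest on 24, 10 and 19 counts over the 3 p21 libraries. Without p21 replicate 1 the value of BIRC5 was -3.02, and without p21 replicate 3 that of SGO1 was -2.94. Smaller differences passed for SGO2 (-0.90 ± 0.15), KNL1 (-0.80 ± 0.19), MIS18A (-0.62 ± 0.17), CENPE (-0.56 ± 0.13), DSN1 (-0.38 ± 0.094), INCENP (-0.27 ± 0.064), MIS12 (-0.25 ± 0.074) and ZW10 (-0.17 ± 0.067). CENPT was higher in p21 cells with a log2 fold change of 0.39 ± 0.079 (adjusted p = 2.69e-04), and SKA2 with 0.51 ± 0.087 (adjusted p = 4.35e-05). Of the exonic bases of CENPT, 19.6% are shared with other genes, chiefly TSNAXIP1. The 2 genes that were higher in p21 cells belong to complexes in which other members, CENPW and SKA3, were lower. CENPW and SKA3 were under the low-count filter's level in p21 cells, so they give this contrast no separate support.

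NDC80 and SPC24, partners of NUF2, did not pass in the same comparison, with log2 fold changes of -0.44 ± 0.20 (adjusted p = 0.0779) and -0.47 ± 0.30 (adjusted p = 0.197). NDC80 stood at 1.67 ± 0.212 CPM in p21 cells and 2.26 ± 0.606 CPM in p16 cells. CENPA lost its call without p16 replicate 2 (adjusted p = 0.0558) or without p21 replicate 3 (0.113). CENPW lost its call without p16 replicate 2 (0.103) or p21 replicate 2 (0.068), MIS12 without p21 replicate 1 (0.0557), and ZW10 without p16 replicate 1 (0.148) or p21 replicate 2 (0.268), and ZW10 also under 3 other alternatives. Calls were gained for NDC80 without p16 replicate 1 (0.0462) or replicate 3 (0.0438), for SPC24 without p21 replicate 1 (0.0412), and for CENPI without p16 replicate 3 (0.0161) or p21 replicate 3 (0.0286).

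With Torin2, 24 of the 35 tested genes rose in p16 cells, and most of them stayed below the mVenus level. CENPF rose most, and CENPA, HJURP, SKA3, KNL1, NUF2 and BIRC5 also rose by at least 2-fold. Of the 35 genes, 1 fell, CENPN. The comparison asks which genes differ when Torin2 is added to p16 cells. At an adjusted p under 0.05 (edgeR), 24 of 35 rose and 1 fell, where 30.3% of all tested genes rose and 29% fell, and 10 did not pass. At least 2-fold rises numbered 10, where the share over all tested genes was 4.7%, and the median log2 fold change was 0.63, against 0.023 over all tested genes.

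By role, 2 of 4 CENP-A genes, 6 of 13 inner network genes, 7 of 8 outer complex genes, 2 of 2 tested SKA genes, 2 of 3 corona genes and 5 of 5 inner centromere genes rose with Torin2. Over all tested genes 30.3% rose. CENPF rose with a log2 fold change of 2.26 ± 0.059 (adjusted p = 3.12e-17), to 33% of its mVenus mean in p16 cells with Torin2, against 6.92% in p16 cells. CENPA rose with a log2 fold change of 1.90 ± 0.28 and HJURP with 1.89 ± 0.18, and CENPA was under the filter's level in p16 cells, while MIS18A (0.19 ± 0.15) and OIP5 (0.38 ± 0.34) did not pass. Other rises of at least 2-fold were those of SKA3 (1.74 ± 0.17), KNL1 (1.68 ± 0.13), NUF2 (1.61 ± 0.22), BIRC5 (1.5 ± 0.19), SPC24 (1.39 ± 0.23), SGO1 (1.17 ± 0.26) and CENPE (1.02 ± 0.11). NDC80 rose with a log2 fold change of 0.92 ± 0.17 and ZWINT with 0.63 ± 0.10.

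In the inner network, the rises were those of CENPW (0.91 ± 0.28), CENPU (0.86 ± 0.17), CENPH (0.84 ± 0.15), CENPK (0.83 ± 0.22), CENPI (0.71 ± 0.20) and CENPC (0.25 ± 0.079). CENPH reached 8.53 ± 1.18 CPM in p16 cells with Torin2, against 4.78 ± 0.494 CPM in p16 cells, and CENPC reached 23.7 ± 1.7 CPM, against 19.9 ± 2.09 CPM. CENPN fell with a log2 fold change of -0.63 ± 0.13 (adjusted p = 2.27e-04), and 22.8% of its exonic bases are shared, chiefly with CMC2. Its partner CENPL did not pass (-0.075 ± 0.077, adjusted p = 0.501). CENPT (-0.021 ± 0.082), MIS12 (-0.042 ± 0.073) and ZW10 (0.13 ± 0.065) did not pass either, nor did CENPM, CENPO, CENPP or CENPQ.

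Some of the smaller rises lost their call when 1 library was left out, in part with a log2 fold change about as large as the reported one. That of DSN1 was 0.23 without p16 replicate 3, against 0.21 as reported, and that of NSL1 was 0.21 without p16 replicate 2, against 0.22 as reported. Without p16 replicate 1 the adjusted p became 0.0564 for CENPC, 0.0505 for CENPW, 0.174 for DSN1, 0.0844 for NSL1 and 0.0568 for SKA2. Without p16 replicate 2 it became 0.0714 for NSL1 and 0.0703 for SKA2, and without p16 replicate 3 it became 0.0529 for DSN1 and 0.202 for CDCA8. Leaving out Torin2 replicate 1 gave 0.0555 for CENPC, 0.0941 for DSN1, 0.106 for NSL1 and 0.0641 for SKA2. Leaving out Torin2 replicate 2 gave 0.141 for CDCA8, and Torin2 replicate 3 gave 0.0567 for CENPW, 0.122 for DSN1 and 0.0886 for CDCA8. Counting all 12 alternatives, DSN1 lost its call in 9, CDCA8 in 6, NSL1 in 4, SKA2 in 3 and CENPC and CENPW in 2 each. CENPM gained a call without Torin2 replicate 1 (adjusted p = 0.0411), and ZW10 with upper quartile scaling (0.0396). The other 18 rises and the fall of CENPN passed under all 12 alternatives.

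**Figure D3:**
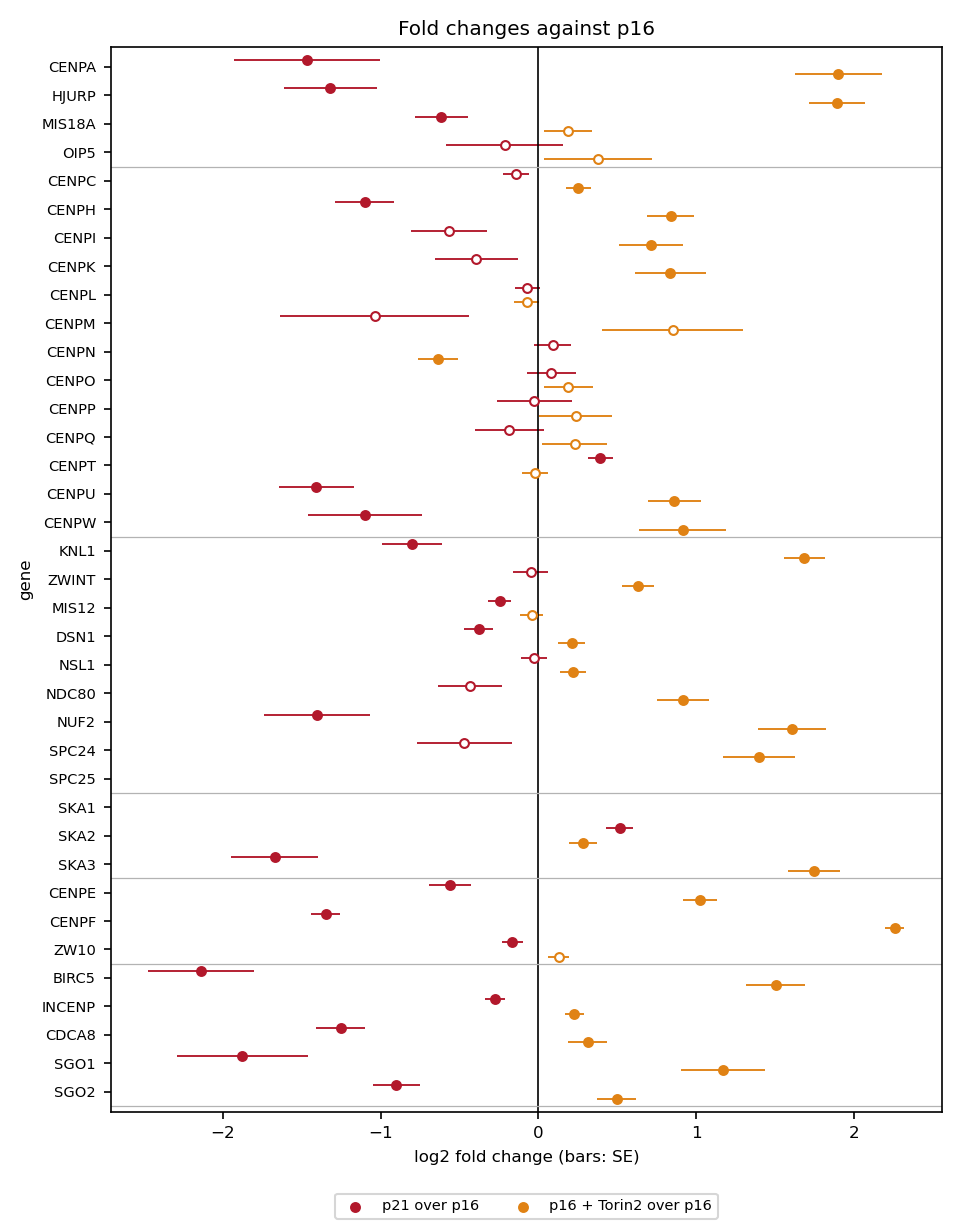
Points are log2 fold changes over p16 for each tested gene, with bars of 1 SE, for p21 cells and for p16 cells with Torin2, and open points did not pass an adjusted p of 0.05. Most p21 points lie left of 0, CENPT and SKA2 are the filled p21 points to the right, and CENPN is the filled Torin2 point to the left.

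Even with Torin2, p16 cells stayed below mVenus cells for most of the genes. In that comparison 32 of 35 fell and 0 rose at an adjusted p under 0.05 (edgeR), where 36.1% of all tested genes fell and 31.2% rose, and 0 rose at an unadjusted p under 0.05 or with DESeq2. At least 2-fold falls numbered 25, where the share over all tested genes was 9.9%, and the median log2 fold change was -1.49, against -0.032 over all tested genes. The 3 genes that did not pass were CENPC (0.064 ± 0.076, adjusted p = 0.474), CENPH (-0.11 ± 0.13, adjusted p = 0.494) and NSL1 (-0.091 ± 0.079, adjusted p = 0.318). CENPM (-3.11 ± 0.28), NDC80 (-2.82 ± 0.10), HJURP (-2.70 ± 0.10) and BIRC5 (-2.63 ± 0.11) were among those furthest below mVenus on the log2 scale. CENPM, with 6, 11 and 14 counts in p16 cells with Torin2, was above the low-count filter's level only in mVenus cells. It therefore gives the counts of falls no separate support. MIS18A (-0.36 ± 0.14) lost its call without mVenus replicate 1 (adjusted p = 0.0956), mVenus replicate 3 (0.0919), Torin2 replicate 1 (0.0547) or Torin2 replicate 3 (0.153). ZW10 (-0.15 ± 0.062, adjusted p = 0.0442) lost its call under 10 of 12 alternatives, among them without mVenus replicate 2 (0.153), mVenus replicate 3 (0.0864), Torin2 replicate 1 (0.12) or Torin2 replicate 3 (0.144). NSL1 gained a call without mVenus replicate 1 (0.0251).

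The order of the group means was p21, p16, p16 with Torin2 and mVenus from low to high for 28 of the 35 tested genes (80%), against 777 of all 14504 tested genes (5.36%). The p21 mean was the lowest for 30 of the 35 genes, that of p16 with Torin2 for 3 and that of p16 for 2. Over all tested genes these shares were 24%, 28.8% and 21.8%. The mVenus mean was the highest for 34, against 28.1% of all tested genes, and for CENPC that of p16 with Torin2 was. The 11 tested genes under the low-count filter's level in p21 cells give these counts no separate support. Neighbouring groups in that order did not always differ beyond their spread: 14 genes did not pass between p21 and p16, and 10 did not pass between p16 with Torin2 and p16.

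**Figure D4:**
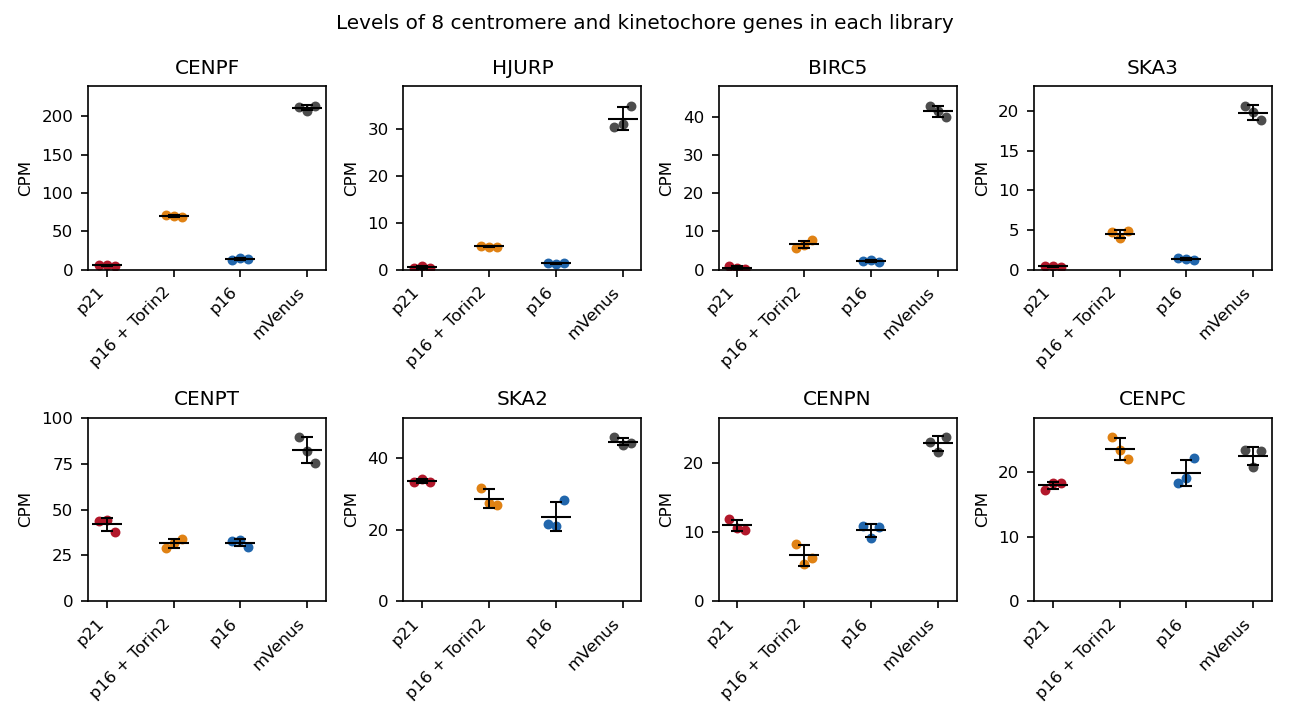
Points are the CPM of single libraries for 8 genes, with the mean as a horizontal mark and bars of 1 SD (n = 3), in the order p21, p16 with Torin2, p16 and mVenus on a linear axis from 0. CENPF, HJURP, BIRC5 and SKA3 show mVenus far above the rest, and CENPT, SKA2, CENPN and CENPC show other orders among the p21 and p16 groups.

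Levels of different genes can be compared only per length, here as CPM per kilobase of exon. In mVenus cells the genes of the passenger complex stood at 15.2 ± 0.198 for INCENP, 11.3 ± 0.249 for CDCA8 and 10.8 ± 0.394 CPM per kilobase for BIRC5 (SD, n = 3). In p21 cells the same levels were 4.73 ± 0.252 for INCENP, 0.878 ± 0.0664 for CDCA8 and 0.145 ± 0.126 CPM per kilobase for BIRC5. As a ratio, INCENP and BIRC5 lay further apart in p21 cells than in mVenus cells, which restates their unequal falls given above. The BIRC5 level in p21 cells rests on 3 to 15 counts per library and was under the low-count filter's level, so it gives no separate support.

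Within the MIS12 complex, MIS12, DSN1 and NSL1 stood close together in mVenus cells, at 7.32 ± 0.128, 7.0 ± 0.242 and 7.42 ± 0.919 CPM per kilobase. In p21 cells they stood at 5.18 ± 0.346, 2.86 ± 0.271 and 5.85 ± 0.473 CPM per kilobase, with DSN1 the lowest. The NDC80 complex holds 1 copy of each subunit, and in mVenus cells NDC80 stood at 8.39 ± 0.512, NUF2 at 5.1 ± 0.330, SPC24 at 5.76 ± 0.423 and SPC25 at 0.218 ± 0.0654 CPM per kilobase. In p21 cells NDC80 stood at 0.463 ± 0.0589, NUF2 at 0.149 ± 0.0832 and SPC24 at 0.333 ± 0.147 CPM per kilobase, with SPC25 at 0 counts. In the SKA complex SKA2 stood at 14.2 ± 0.351, SKA3 at 6.5 ± 0.306 and SKA1 at 0.00615 ± 0.0107 CPM per kilobase in mVenus cells, the SKA1 value resting on 1 count. Whether the counting or the annotation lowers SPC25 and SKA1 was not tested.

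Among genes with a matched promoter, those with a CHR match from 50 bases before to 50 bases after the start had a median log2 fold change of -3.67 over mVenus in p21 cells (13 tested genes), against -1.39 for those without one there (16 tested genes). In p16 cells the medians over mVenus were -2.74 with and -1.34 without the match. With Torin2 over p16 they were 0.91 with and 0.27 without, and in p21 over p16 cells they were -1.10 with and -0.31 without. In p16 cells with Torin2 over mVenus the medians were -2.06 with and -1.18 without. The groups of promoters overlapped, with log2 fold changes of -5.73 to -1.06 in p21 cells where the match was present and -5.91 to -0.33 where it was not. Under the low-count filter's level in p21 cells were CENPA, OIP5, CENPW, NUF2, SKA3 and SGO1, with the match, and HJURP, CENPU and SPC24, without it. These genes were tested only through groups in which they were higher, so they give the medians no separate support. HJURP, with a CHR only at 111 bases before the start, and CENPU and SPC24, with no CHR, fell many-fold, whereas CENPN and INCENP, with a CHR near the start, fell about 2- to 3-fold. Split by E2F words anywhere in the window, the medians in p21 cells over mVenus were -4.17 with (5 tested genes) and -2.62 without (24). In p16 cells over mVenus they were -3.285 and -1.974. With Torin2 over p16 they were 0.86 and 0.40, and in p21 over p16 cells -0.44 and -0.39. Of those 5 genes, CENPA, OIP5 and NDC80 also hold the CHR match near the start. Split by CCAAT boxes, the p21 medians over mVenus were -2.68 with and -2.24 without. All these medians describe the genes, and no test was made of them.

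**Figure D5:**
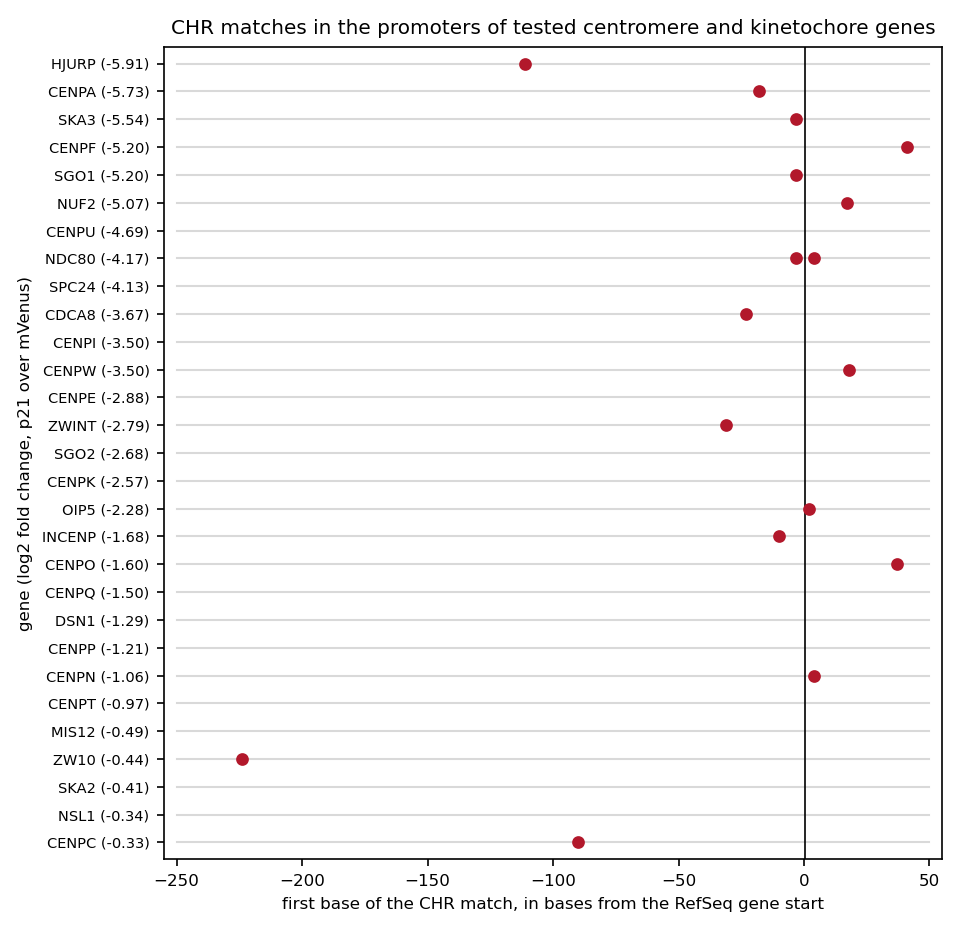
Each row is a tested gene with a matched promoter, ordered by its log2 fold change of p21 over mVenus, given in brackets, and points mark the first base of each CHR match in bases from the annotated start. Most matches of the genes with the largest falls lie within 50 bases of the start. Of the lowest rows of the plot, NSL1, SKA2, MIS12 and CENPT hold no match, whereas CENPC, ZW10 and CENPN hold a match.

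The other centromere, kinetochore and spindle checkpoint genes, are a list of 25 outside the 37. In p21 cells against mVenus cells 19 of 25 fell and 2 rose, where 28.3% of all tested genes fell and 28.2% rose. In p16 cells against mVenus cells 21 fell and 2 rose, where 32.8% fell and 30.9% rose over all. With Torin2 over p16 cells 14 rose and 2 fell (4 fell without the low-count filter), where 30.3% rose and 29% fell over all. In p21 over p16 cells 12 were lower and 4 higher (2 higher without p21 replicate 3), where 27.2% were lower and 27.2% higher over all. In p16 cells with Torin2 over mVenus cells 18 fell and 2 rose, where 36.1% fell and 31.2% rose over all. KIF2C, a microtubule-removing kinesin of the centromere, fell with a log2 fold change of -6.68 ± 0.15 in p21 cells and -4.74 ± 0.12 in p16 cells over mVenus. AURKB, the kinase of the passenger complex, fell with -5.43 ± 0.21 in p21 cells and -4.34 ± 0.18 in p16 cells. KIF2C and AURKB rest on 17 and 18 counts over the 3 p21 libraries, all under the low-count filter's level. The lowest p16 library of AURKB was under it too, at 0.406 CPM. Since both genes entered the test through groups in which they were higher, they give these counts no separate support. Both rose with Torin2 over p16 cells, KIF2C with a log2 fold change of 1.95 ± 0.17 and AURKB with 1.90 ± 0.24, and both stayed below mVenus with Torin2, at -2.79 ± 0.09 for KIF2C and -2.44 ± 0.14 for AURKB.

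BOD1, which restrains the phosphatase PP2A at kinetochores, rose over mVenus with a log2 fold change of 0.82 ± 0.057 in p21 cells, 0.86 ± 0.057 in p16 cells with Torin2 and 0.34 ± 0.059 in p16 cells. MAD1L1, a checkpoint protein, rose in p16 cells (0.21 ± 0.056), and CLASP1, a microtubule-stabilising protein, rose in p21 cells (0.14 ± 0.036), both by small amounts on the log2 scale. PLK1, a mitotic kinase, fell with Torin2 over p16 cells (-0.51 ± 0.082), as did MAD1L1 (-0.30 ± 0.057). In p21 over p16 cells, PLK1 had a log2 fold change of -2.52 ± 0.11 and KIF2C of -1.94 ± 0.31, the latter on 17 counts in p21 cells. BOD1 (0.48 ± 0.056) and BUB3 (0.42 ± 0.042), a checkpoint protein, were higher in p21 cells. ITGB3BP, a subunit beside CENPO, CENPP, CENPQ and CENPU in their complex, was higher than mVenus in p16 cells with Torin2 (0.39 ± 0.10).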

How the data were processed

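The authors deposited 1 table of raw counts per library. Per the file headers, reads were counted over exons and summed by gene name with featureCounts 1.6.3 on GENCODE 29, with no option for strand, read pairs or multimapping reads. Reads of overlapping genes therefore cannot be told apart by strand. The submitters' processing notes name HISAT2, FastQC 0.11.3 and DESeq2, and GRCh38.p7 as the build. The authors' deposited tables of comparisons were not used, and columns of other samples used number 0.

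Genes were filtered with filterByExpr (14504 kept of 30296 with a count), scaled by TMM and tested in 1 fit of all 12 libraries with a coefficient per group and no block (8 residual degrees of freedom) by the two-sided quasi-likelihood test (edgeR 4.0.16, R 4.3.3), with Benjamini-Hochberg adjustment over all tested genes at 0.05. Biological variation, as edgeR's common coefficient, came to 3.94%. CPM use TMM library sizes. SE is the absolute log2 fold change over the square root of the F statistic, not a direct estimate. It may understate the error on few counts: without p21 replicate 3, SGO1 in p21 over mVenus cells moved from -5.20 to -6.26. Floors of 3 counts and intervals cover counting error only. p-values rest on the spread between the 3 libraries within groups, estimated over all 4 groups together and moderated across the tested genes. They do not measure the spread of the compared groups alone. Code was tested on simulated counts. Figures used Python 3.11.15, pandas 2.3.3 and matplotlib 3.10.9.

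Every library's value is given for genes at either extreme of their role, against most of their role, or called between p21 and p16. Of the other pathway genes, up to 2 rises and 2 falls per comparison are named. Genes with over 30% of exonic bases shared with another gene are called uncertain. The genes and lists were chosen with earlier results of these data known. Alternatives were DESeq2 size factors, upper quartile scaling, fits with each library left out in turn, with the replicate number as a block, with the 6 libraries of a comparison alone and with every gene kept, and the Wald test of DESeq2 1.42.0.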

Additional observations from a re-analysis of the deposited data

How the results depend on the processing

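Over the 12 alternatives of each comparison, 35 to 36 of the genes fell in p21 cells against mVenus cells and 34 to 35 fell in p16 cells. With Torin2 over p16 cells 19 to 25 rose, in p21 over p16 cells 17 to 21 were lower, and in p16 cells with Torin2 over mVenus cells 30 to 32 fell. No gene that passed as reported changed sign under any of these alternatives. Leaving out the low-count filter gave 4 falls in place of 2 among the 25 other pathway genes with Torin2 over p16, and leaving out p21 replicate 3 gave 2 of them higher in p21 over p16 cells in place of 4 (2 to 4 over the fits without a library). Some genes that did not pass changed sign, and the cause was not tested. Upper quartile scaling gave CENPT a log2 fold change of 0.010 with Torin2 over p16. Over the fits without a library, the log2 fold changes with Torin2 over p16 were -0.073 to 0.036 for CENPT and -0.087 to 0.025 for MIS12. Those in p21 over p16 cells were -0.39 to 0.12 for OIP5, -0.15 to 0.061 for CENPP, -0.022 to 0.21 for CENPO, -0.098 to 0.010 for NSL1 and -0.13 to 0.020 for ZWINT, and that of CENPH in p16 cells with Torin2 over mVenus was -0.22 to 0.0058. The replicate numbers did not pair the libraries: the median correlation of same-numbered deviations was 0.014 (-0.082 to 0.075), and 5 of 12 libraries correlated best with their own number. With the replicate block, 35 genes fell in p21 cells, 34 in p16 cells and 31 with Torin2 against mVenus, 23 rose with Torin2 over p16, and 18 were lower in p21 over p16 cells. Depth limits 11 genes in p21 cells, of which at least 1 library held 7 counts or fewer: CENPA, HJURP, OIP5, CENPM, CENPW, NUF2, SKA3, BIRC5, SGO1, SPC25 and SKA1.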
